A study of Daphnia magna with 144 samples.

Results

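The 63 probes described here were selected on their own levels in whole *Daphnia magna*, a freshwater water flea: each varied strongly over 36 chemicals and was highest in Atrazine, Phenanthrene, Nonylphenol or Bis2-ethylhexyl phthalate. They are 63 of 14338 probes on the array, and 63 of the 844 whose span lay over 3 and up to 5. The span is the difference between the highest and the lowest of the 36 chemical means on a log2 scale. A level is log2 of the foreground minus the background intensity plus 50 after quantile normalization over all arrays. Of the 63 members, 50 were highest in Atrazine, 7 in Phenanthrene, 5 in Nonylphenol and 1 in Bis2-ethylhexyl phthalate. The limit of 300 members was not reached. Because the levels chose the members, they are given as a description, with no test.

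Animals aged 14 days were held for 24 h in groups of 20 in 1 L of medium, and total RNA was hybridised to 1-colour arrays labelled with Cy3. Every chemical was given at 1/10 of the concentration lethal to the median animal and has 4 arrays. Atrazine was dosed at 2.07 mg/L, against an Acetone control. Phenanthrene was dosed at 0.366 mg/L, against a DMSO control, while Nonylphenol at 0.0071 mg/L and Bis2-ethylhexyl phthalate at 0.039 mg/L had an Ethanol control. Of the chemicals that recur below, Diazinon at 0.0003 mg/L and Parathion at 0.00226 mg/L shared the Acetone control with Atrazine, and Permethrin at 0.00041 mg/L shared the DMSO control with Phenanthrene. Arsenic at 0.54 mg/L and Copper at 0.00615 mg/L belonged to the 13 chemicals set against medium alone. So did 20 hydroxyecdysone at 1.37 mg/L, Selenium at 1.33 mg/L, Zinc at 1.77 mg/L and Silver at 0.000043 mg/L. PonasteroneA at 0.813 uM and Toluene at 3.58 mg/L had the Ethanol control. The same control served Lamda Cyhalothrin at 0.0006 mg/L, Bifenthrin at 0.0001 mg/L, Methoxychlor at 0.0944 mg/L and Dichlorobenzene at 1.51 mg/L. Beta-estradiol at 1 mg/L and Pyripoxyfen at 0.3 nM had it too. Nickel at 0.69 mg/L, Chromium at 0.054 mg/L, Phenol at 0.79 mg/L and MTBE at 145 mg/L were set against medium. Chlorpyrifos at 0.00129 mg/L had the Methanol control. Methylfarnesoate had the Methanol control, and its dose label mixes units, so no dose is given for it here. The series covers 36 chemicals in all. The label of each array names its vehicle, and no label gives a slide or scan date, so a chemical cannot be told apart from its batch.

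Atrazine is a triazine herbicide that blocks electron transport in the photosynthesis of plants. Phenanthrene is a polycyclic aromatic hydrocarbon of combustion products and oil, Nonylphenol is a breakdown product of surfactants that binds the vertebrate oestrogen receptor weakly, and Bis2-ethylhexyl phthalate is a plasticiser. Permethrin, a pyrethroid, holds nerve sodium channels open, and Diazinon and Parathion are organophosphates whose oxidised forms inhibit acetylcholinesterase. Adult female *Daphnia* moult and release a brood in repeated cycles under the control of ecdysteroids such as 20 hydroxyecdysone and of the juvenoid methyl farnesoate, so RNA from whole animals mixes tissues, embryos and stages of that cycle. In such samples, fewer cells of a type and less RNA per cell cannot be told apart. The probes carry only an array name here, so no gene or function is given for any member.

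Spans ran from 3.06 to 4.98 with a median of 3.80, and the level in the highest chemical ran from 8.92 to 15.91 with a median of 11.15. Just inside the lower limit of 3 were DM07149 with a span of 3.06, DM00910 with 3.09 and DM01475 with 3.12, and just outside it were DM00008 with 3.0, DM06636 with 2.97 and DM08094 with 2.95. At the upper limit of 5, DM06878 with 4.98, DM06382 with 4.90 and DM12123 with 4.89 were inside, while DM04931 with 5.03, DM00087 with 5.21 and DM12201 with 5.26 were outside. All 63 members were above background on all 4 arrays of their highest chemical, and 47 were above it on every array of the series. For 6 members no array of the lowest chemical was above background, so their span carries only a bound at its low end.

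**Figure D1:**
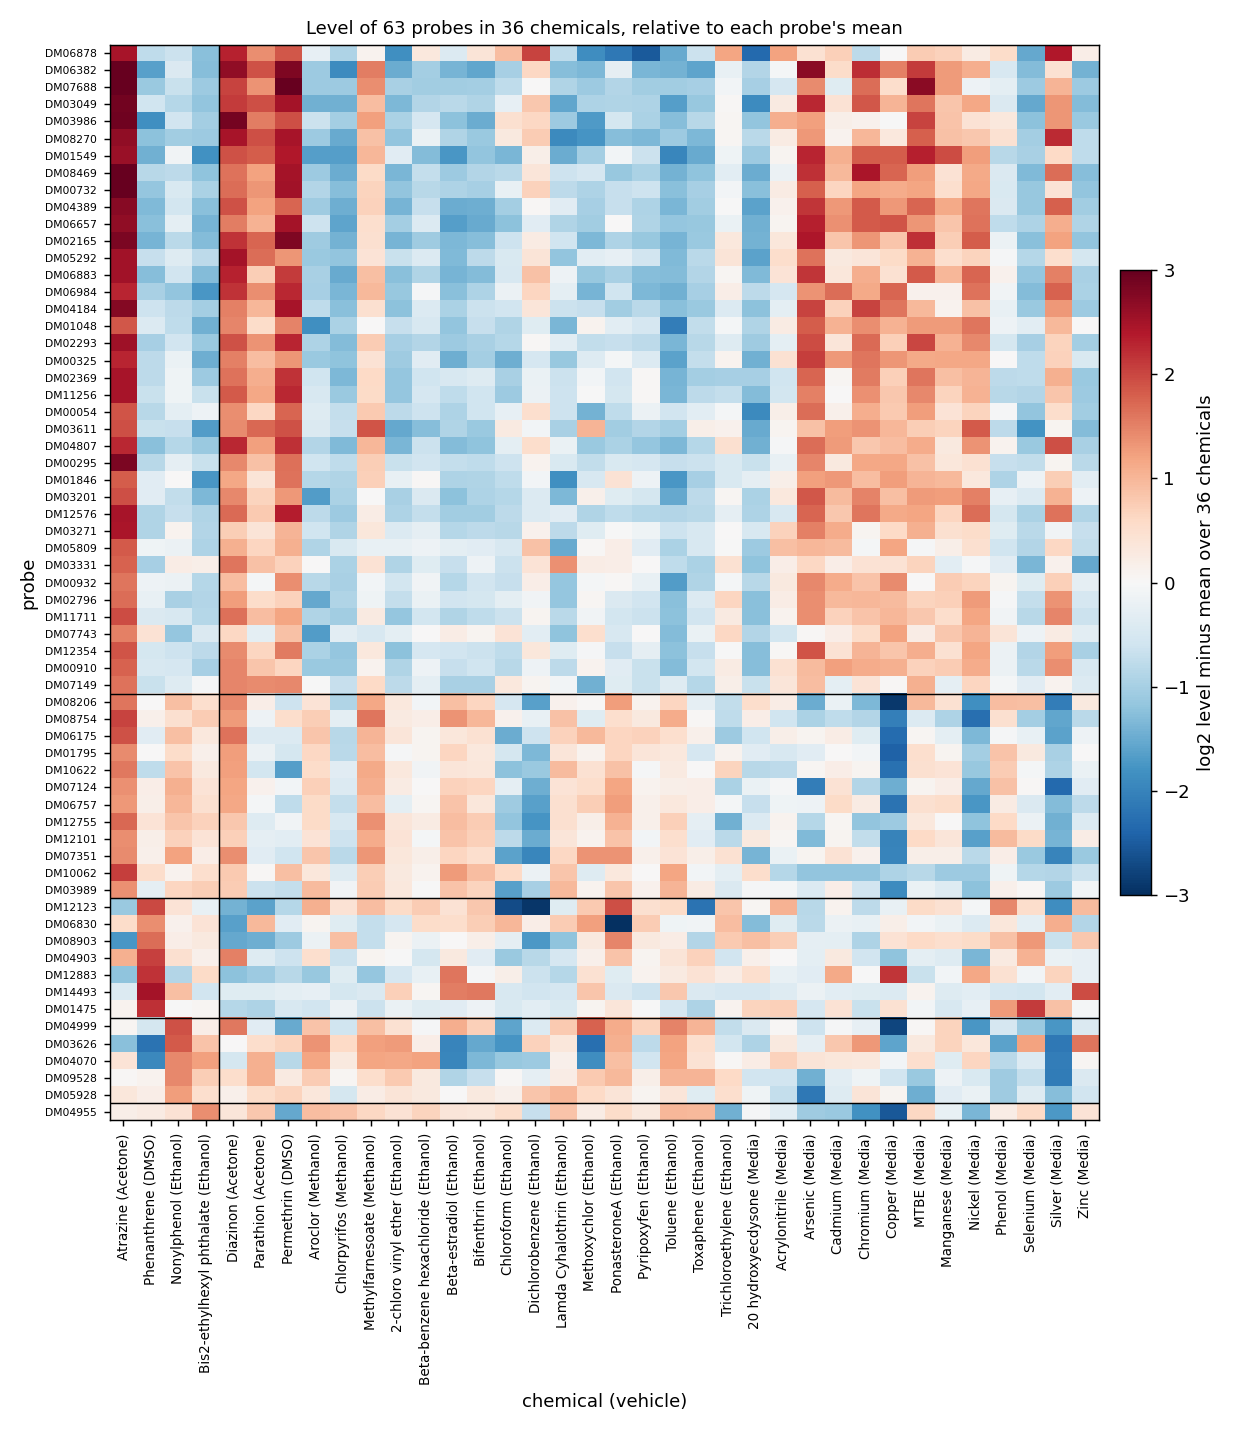
Level of each of the 63 probes (rows) in each of the 36 chemicals (columns, with the vehicle), as the mean of 4 arrays minus the probe's mean over the chemicals, in log2 units and with colours ending at -3 and 3. Lines part the 38 and 12 Atrazine probes and those highest in Phenanthrene, Nonylphenol and Bis2-ethylhexyl phthalate, in that order down the page; the 38 share red columns in Atrazine, Diazinon, Permethrin and Arsenic.

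The 4 arrays of a chemical were not equally far apart. In 30 of the 36 chemicals they fell into 2 nearest pairs, in Atrazine arrays 1 and 4 against arrays 2 and 3. Between arrays of an Atrazine pair the root mean square difference was 0.192 and 0.0860, against 0.341 to 0.389 across the pairs, and a probe spotted 2 times on an array differed by 0.227 at the median. The labels do not say whether arrays of a pair share an extract. Errors of the 4 chemicals are given as the SD of the 2 pair means (n = 2), beside the 4 single arrays.

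The margin over the next chemical was small for most members. The highest chemical's 4 arrays all lay above the 4 arrays of the next chemical for 27 of the 63 members, where the same held for 24.2% of all 14338 probes and 46.3% of the 844 variable ones. Since the order of these means chose the members, nothing is read from this count. The difference between the highest and the next chemical mean had a median of 0.22 and a maximum of 1.17, and it was under 0.5 in 54 members and under 0.1 in 16. Most of these probes were therefore nearly as high in at least 1 other chemical.

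The 50 Atrazine members divided into 2 sets by the deposited log2 ratio to the Acetone control, a division made after the values were seen. In 38 probes the mean ratio was 1.94 or more, with a median of 3.86, and in the other 12 it was 1.21 or less, with a median of 0.71. The ratio was not part of the selection, but it rests on the same Atrazine arrays. Average-linkage clustering of the profiles over 36 chemicals, with correlation distance and a limit of 0.6, put all 38 in a cluster of their own and the 12 in another, which also held DM04999, DM04955 and DM04903. The median profiles of the 2 sets had a correlation of -0.16 over the 36 chemicals, which share arrays and scaling.

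DM06878 had the largest span among the 38, with levels of 12.66, 12.93, 12.81 and 12.61 on the 4 Atrazine arrays (mean 12.75 ± 0.16). The next chemical, Silver, spread from 12.14 to 13.12 and overlapped Atrazine, while Pyripoxyfen, an insect growth regulator that mimics juvenile hormone, was lowest at 7.70 to 7.86. Atrazine and Silver thus held the same high range and lay clear of Pyripoxyfen. DM06382 had 12.21, 12.46, 12.38 and 12.21 in Atrazine, above the 12.06 to 12.10 of Permethrin and far above the 7.34 to 7.45 of Chlorpyrifos. DM03049 had 12.06, 12.21, 12.18 and 12.13 in Atrazine, against 11.72 to 11.78 in Permethrin and 7.30 to 7.37 in 20 hydroxyecdysone. In both probes the Atrazine arrays did not overlap those of Permethrin.

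DM03986 had 11.34, 11.11, 11.15 and 11.34 in Atrazine, and Diazinon at 11.12 to 11.24 fell inside that range. DM08270 had 11.96 to 12.10 on the Atrazine arrays, at the upper edge of the 11.72 to 11.96 of Diazinon. The lowest chemicals of these probes were Phenanthrene at 6.43 to 6.52 for DM03986 and Lamda Cyhalothrin at 7.43 to 7.48 for DM08270. An organophosphate that shares the Acetone control with Atrazine was thus the runner-up of both. In all, the next chemical of the 38 was Permethrin in 18, Diazinon in 9, Arsenic in 8, Copper in 2 and Silver in 1.

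The largest ratios to the control belonged to DM07688 and DM00295, 2 probes near background in most chemicals. DM07688 had 10.62, 10.39, 10.33 and 10.62 in Atrazine, 9.98 to 10.18 in Permethrin and 5.65 to 5.70 in Phenanthrene, with a median of 6.06 over the 36 chemicals. Its deposited ratio was 9.45. The control level implied by that ratio was 0.96 as log2 of foreground minus background, under a detection limit of 3.10. That limit is the median over the 12 chemical arrays in Acetone, since the control arrays were not used. The levels are quantile normalized and the limit is not, so the comparison is rough. Taken against that limit instead, the log2 ratio is at least about 7.34. DM00295 had 9.42, 9.26, 9.20 and 9.41 in Atrazine and no more than 8.26 in Permethrin, the widest margin to the next chemical of any member. Its ratio was 5.95 ± 0.01 (SD of the 2 pair means), from an implied control of 3.25 that lies near the same limit. Both probes were above background on 84 and 101 arrays of the series, in that order.

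**Figure D2:**
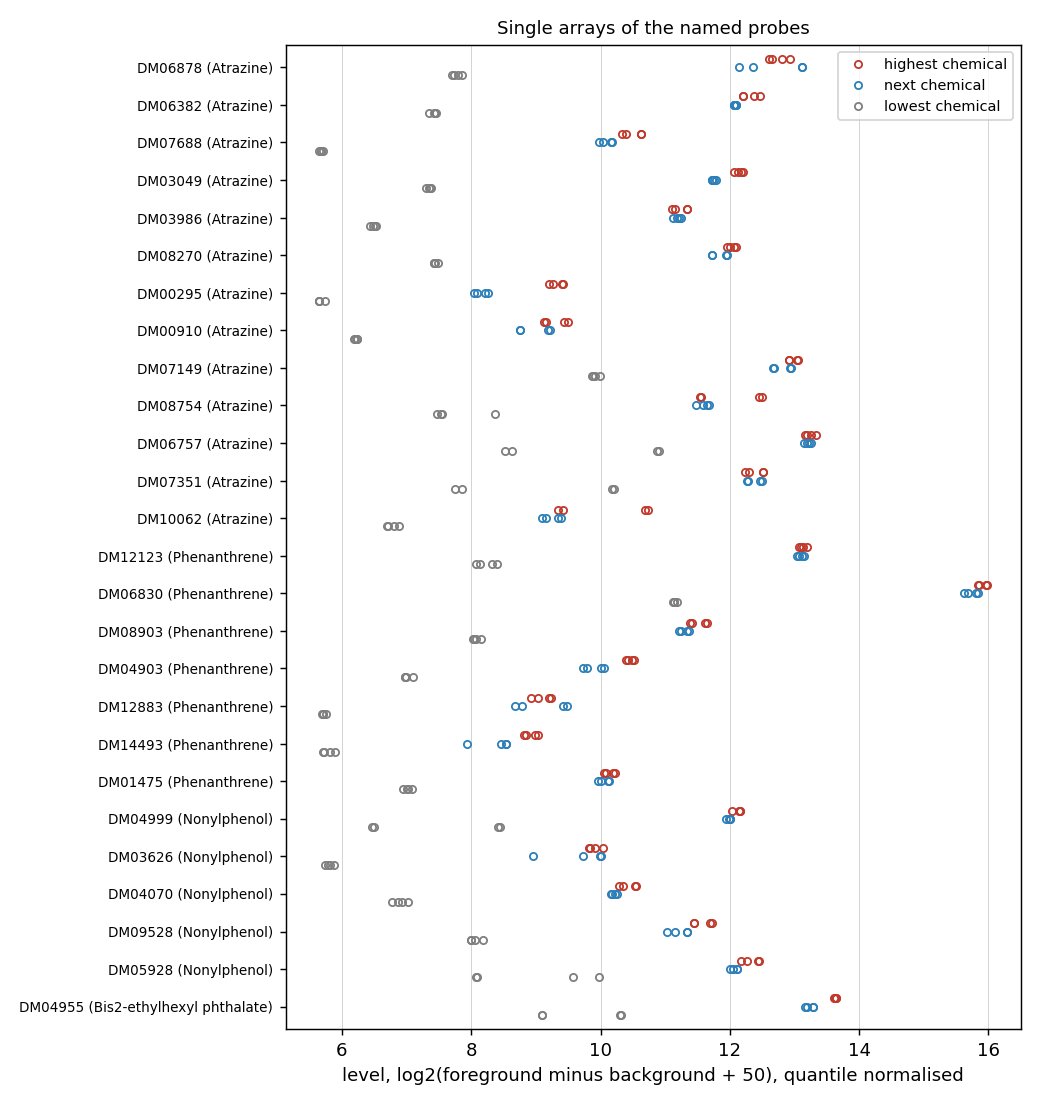
Level (log2, x axis) on single arrays of the members named by rule (y axis, with the highest chemical), where red circles are the 4 arrays of the highest chemical, blue those of the next and grey those of the lowest. The lowest chemical lies well to the left in every row, while the next chemical touches or overlaps the highest in rows such as DM06878 and DM12123.

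Across all 36 chemicals the 38 probes moved as a group. Relative to each probe's own mean over the chemicals, their median level was 2.46 in Atrazine, 1.88 in Permethrin, 1.65 in Arsenic and 1.63 in Diazinon. It was -1.31 in Toluene, -1.22 in 20 hydroxyecdysone, -1.11 in Chlorpyrifos and -1.09 in Bis2-ethylhexyl phthalate. In 13 chemicals at least 34 of the 38 lay above their own mean, in 20 chemicals at most 8 did, and 3 chemicals fell between. The high chemicals were all 3 in Acetone, 8 of the 13 in Media, 1 of the 2 in DMSO, 1 of the 3 in Methanol and none of the 15 in Ethanol. These groups of chemicals differ in class, in vehicle and perhaps in handling, and the part of each was not tested.

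The pesticides did not move together by class. The organophosphate Chlorpyrifos was among the lowest at -1.11, while Diazinon and Parathion stood at 1.63 and 1.06. Among pyrethroids, Permethrin stood at 1.88, Lamda Cyhalothrin at -0.79 and Bifenthrin at -0.91. Chlorpyrifos was set in Methanol and the 2 low pyrethroids in Ethanol, so these levels alone cannot tell compound from vehicle. Against their own vehicle controls the median log2 ratio was -0.40 in Chlorpyrifos, 0.21 in Bifenthrin and 0.62 in Lamda Cyhalothrin. It was 3.36 in Diazinon, 2.39 in Parathion and 3.89 in Permethrin, and the part of the vehicle was not tested. Of the other chemicals that gave members their highest level, Nonylphenol had a median level of -0.56, Phenanthrene -0.81 and Bis2-ethylhexyl phthalate -1.09. The median level of the 38 was thus below the probe means in all of them.

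The ratio to the Acetone control in Atrazine defined the 38, so that all of them exceed 1 there follows from the division. In Diazinon all 38 also exceeded 1, where 10.1% of all 13481 probes in the value table did, and their median was 3.36. In Parathion 34 did, where 9.05% of all probes did, with a median of 2.39. Diazinon, Parathion and Atrazine share 1 Acetone control, so these counts are no separate evidence of the division. In Permethrin, against the DMSO control, the median was 3.89, with 37 of 38 over 1 beside 13.3% of all probes. In Phenanthrene, against that same control, it was 0.18, with 1 of 38 over 1 beside 3.15% of all probes. In Methylfarnesoate 34 exceeded 1 beside 9.34% of all probes, with a median of 2.56 against the Methanol control. Against the Ethanol control the medians of the 15 chemicals ran from -0.25 in Toluene to 1.85 in Dichlorobenzene. In Dichlorobenzene 31 exceeded 1 beside 7.75% of all probes. In Nonylphenol, where levels were below the probe means, the median ratio was 1.15, with 21 over 1 beside 6.32% of all probes. In Bis2-ethylhexyl phthalate it was 0.11, with 2 over 1 beside 3.41%.

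Against medium the picture differed. Arsenic had a median ratio of 0.32, Chromium -0.15, Nickel -0.22 and Copper -0.43, although the levels of the 38 probes were high in all of these. In 20 hydroxyecdysone the median was -3.48, with 37 of the 38 under -1, in Selenium -3.26, with 35, and in Zinc -2.88, with 34. The share of all probes under -1 was 20.7%, 16.2% and 14.4% in the same 3 chemicals, in that order. The control level that the ratios imply can be set beside these: relative to the probe means, and as log2 of foreground minus background, it was 1.90 for Media and between -1.54 and -1.0 for the 4 solvent controls. The Media control was above the probe's own mean in 36 of the 38 probes, and each solvent control was so in 1. On that same scale the 38 stood at 2.82 in Atrazine, 2.11 in Arsenic, 1.64 in MTBE, -1.69 in Chlorpyrifos and -1.90 in Toluene. The medium control thus lay between Arsenic and MTBE, near the highest chemicals. The solvent controls lay below the probe means, though above Chlorpyrifos and Toluene. Each implied control rests on control arrays that were not used here, so its own spread is unknown.

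**Figure D3:**
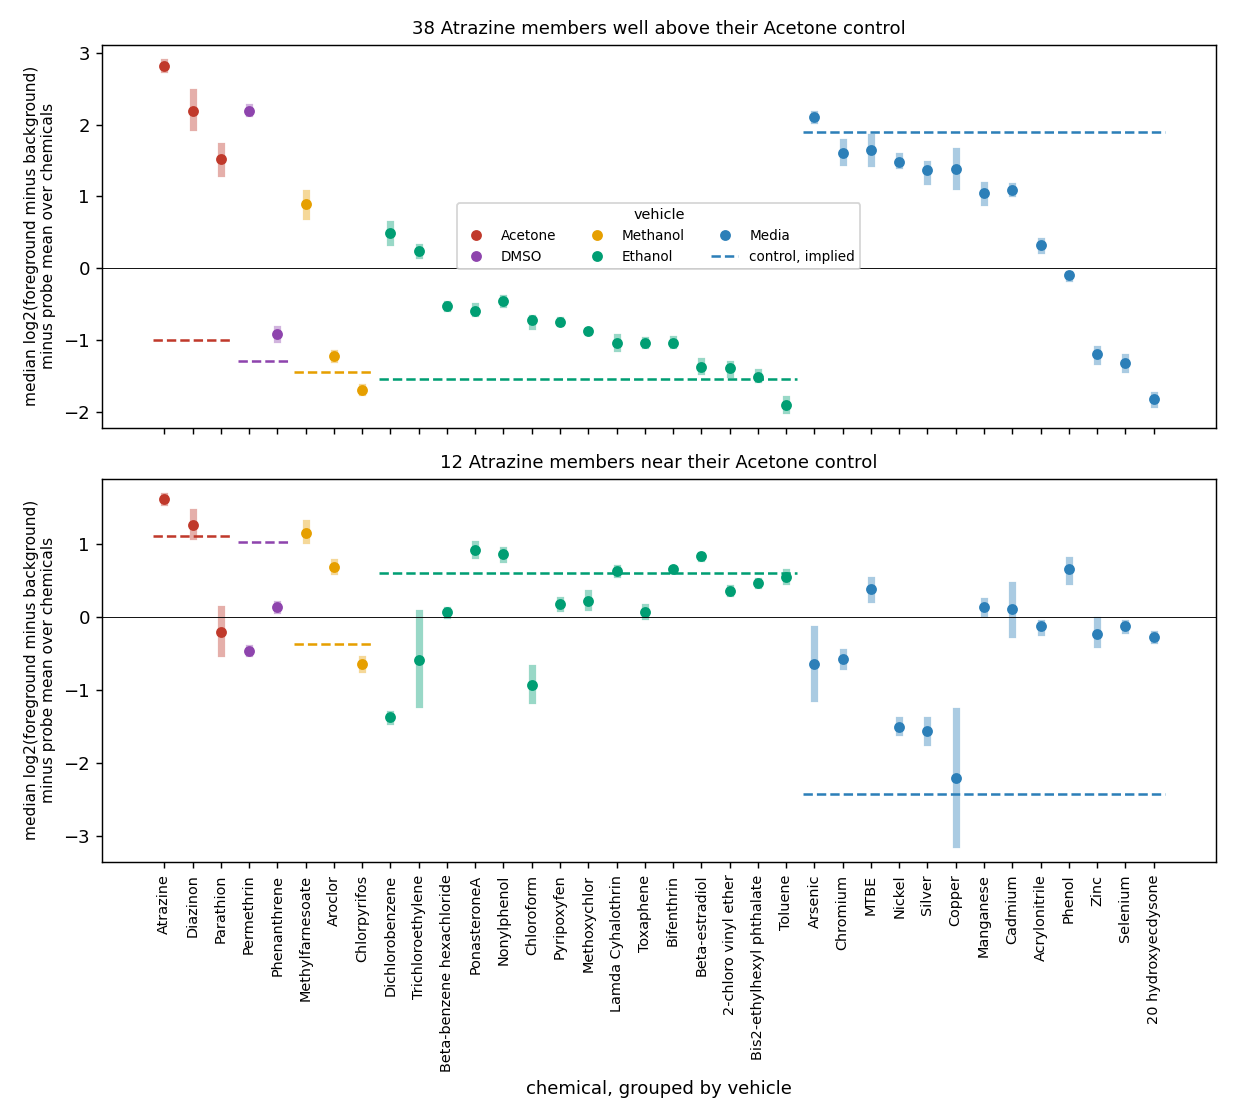
Median over the 38 (top) and the 12 (bottom) Atrazine members of log2(foreground minus background) minus the probe's mean over chemicals (y axis), for every chemical grouped by vehicle (x axis), where points are means over 4 arrays, bars span the 4 arrays and dashed lines are the vehicle controls implied by the deposited ratios. The Media control lies at 1.90 in the top panel and at -2.42 in the bottom panel, and the Acetone control lies at -1.0 and 1.11.

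The 12 other Atrazine members behaved differently. Their median level relative to the probe means was 1.5 in Atrazine, 1.21 in Diazinon and 1.11 in Methylfarnesoate, and it was lowest in Copper at -2.03, Silver at -1.42, Dichlorobenzene at -1.41 and Nickel at -1.29. Copper was the lowest chemical of 8 of the 12. In Arsenic and Permethrin, where the 38 were high, the 12 stood at -0.63 and -0.46. DM08206, named here after its values were seen, had 14.28, 14.20, 14.18 and 14.34 in Atrazine and 13.88 to 14.28 in Diazinon, against 8.57 to 10.90 in Copper. The Atrazine and Diazinon arrays overlapped, and the Copper arrays spread widely but stayed below both.

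Against the Acetone control the 12 had a median ratio of 0.71 in Atrazine, with 2 of 12 over 1 beside 10.8% of all probes, and limma called 10 of the 12 higher, where it called 31.5% of all probes higher. The largest mean ratio was the 1.21 of DM10062, from 1.89 and 1.93 on arrays 1 and 4 and 0.46 and 0.55 on arrays 2 and 3. The smallest ratios were those of DM06757, with -0.13, 0.22, 0.15 and -0.10, and DM07351, with 0.06, 0.41, 0.42 and 0.03, and limma called neither. DM06757 had levels of 13.16, 13.34, 13.25 and 13.20 in Atrazine, which overlapped the 13.15 to 13.25 of PonasteroneA, an ecdysteroid of plant origin. DM07351 had 12.29, 12.51, 12.52 and 12.24 in Atrazine, which overlapped the 12.26 to 12.49 of Diazinon. In both, Copper was lowest, at 8.52 to 10.90 for DM06757 and 7.75 to 10.21 for DM07351. The implied controls were again taken as log2 of foreground minus background. Relative to the probe means they were -2.42 for Media, -0.37 for Methanol, 0.60 for Ethanol, 1.03 for DMSO and 1.11 for Acetone. Their sign was opposite to that of the 38 for all but Methanol, which was below the probe means in both sets. Ratios to the Media control were accordingly high in most chemicals, with a median of 3.36 in Phenol, 3.03 in MTBE and 2.15 in 20 hydroxyecdysone, and 0.08 in Copper.

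The 2 members with the largest spread over the arrays of their highest chemical were both among the 12, and in both the spread lay between the pairs. DM10062 had 10.68, 9.34, 9.42 and 10.73 in Atrazine (mean 10.04 ± 0.94). The lower pair lay close to the 9.09 to 9.39 of Beta-estradiol, the next chemical, and the lowest, Chromium, had 6.69 to 6.88. DM08754 had 12.50, 11.54, 11.55 and 12.45 in Atrazine (mean 12.01 ± 0.65), and its lower pair fell within the 11.47 to 11.68 of Methylfarnesoate. Arrays 1 and 4 of Atrazine, the higher pair in both probes, had a median foreground of 67 each, against 92 and 90 on arrays 2 and 3, and the part of this difference in brightness was not tested.

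The 7 Phenanthrene members shared no common profile. In the same clustering DM12123, DM08903 and DM01475 formed a cluster, DM04903 joined the 12 Atrazine probes, and DM06830, DM12883 and DM14493 each stood alone. DM12123 had 13.07, 13.20, 13.10 and 13.13 in Phenanthrene and overlapped PonasteroneA at 13.04 to 13.14, with Dichlorobenzene lowest at 8.07 to 8.40. DM08903 had 11.41, 11.65, 11.61 and 11.39 in Phenanthrene, just above PonasteroneA at 11.22 to 11.37, and was lowest in Atrazine at 8.03 to 8.15. DM01475 had 10.22, 10.06, 10.09 and 10.19 in Phenanthrene, which overlapped Selenium at 9.96 to 10.13, and was lowest in Parathion. These probes were thus about as high in PonasteroneA or in Selenium as in Phenanthrene, and DM08903 ran opposite to the 38 probes in Atrazine. In 20 hydroxyecdysone, also an ecdysteroid, DM12123 was at 11.21 and DM08903 at 10.73, beside medians over the 36 chemicals of 11.59 and 10.02.

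DM06830, the brightest member, had 15.86, 15.96, 15.98 and 15.84 in Phenanthrene, touching the 15.62 to 15.84 of Methoxychlor, and it was lowest in PonasteroneA at 11.12 to 11.19. It was at the scanner limit on 2 arrays of the series. DM04903 had 10.42, 10.48, 10.51 and 10.40 in Phenanthrene, clear of the 9.73 to 10.06 of Diazinon, and 6.98 to 7.10 in Nickel. The ecdysteroid PonasteroneA was therefore near the top for DM12123 and DM08903 and at the bottom for DM06830. DM12883 had 9.21, 8.93, 9.03 and 9.24 in Phenanthrene, within the 8.67 to 9.48 of Copper, and was not above background on any Diazinon array. DM14493, with 8.84, 9.04, 8.99 and 8.82 in Phenanthrene, lay clear of Zinc at 7.94 to 8.54 and had a median of 6.04 over the 36 chemicals, near background.

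Against the DMSO control the Phenanthrene members split again. The mean ratio was 3.15 for DM12883, 2.30 for DM04903, 2.04 for DM01475 and 1.62 for DM06830, and each of these was called higher by limma. DM12123, DM08903 and DM14493 had mean ratios of 0.32, 0.30 and -0.03 and were not called. DM14493 was thus as high in its control as in Phenanthrene. In all, limma called 4 of 7 higher in Phenanthrene, where 22.4% of all probes were called higher, and 3.15% of all probes had a ratio over 1. The SD of the 2 pair means ran from 0.03 to 0.17 over the 7 members' levels.

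The 5 Nonylphenol members had mean ratios to their Ethanol control from 0.97 to 2.32. DM04999 had 12.15, 12.03, 12.14 and 12.15 in Nonylphenol, just above the 11.94 to 12.01 of Methoxychlor, and 6.46 to 8.44 in Copper. DM09528 had 11.70, 11.72, 11.45 and 11.45, above the 11.03 to 11.34 of Parathion, with Silver lowest at 7.99 to 8.18. DM05928 had 12.26, 12.17, 12.45 and 12.43, above the highest Lamda Cyhalothrin array at 12.11, with Arsenic lowest at 8.07 to 9.97. All of these arrays lay above the next chemical, by little. Metals or metalloids gave the lowest level in these 3 probes and in DM04070. Silver, Arsenic and Copper were among the 10 lowest chemicals in 45.5%, 32.7% and 31.5% of the 844 variable probes. Nothing is therefore read from their place here.

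DM04070 had 10.35, 10.28, 10.55 and 10.54 in Nonylphenol, above the 10.16 to 10.26 of Bis2-ethylhexyl phthalate and the 6.78 to 7.02 of Silver. DM03626 had 9.91, 10.04, 9.84 and 9.82 in Nonylphenol, overlapped Zinc at 8.95 to 10.01, and was above background on no array of Methoxychlor, its lowest chemical. DM03626 and DM04070 clustered together, as did DM09528 and DM05928. The ratio to the Ethanol control was 2.32 for DM03626, 1.37 for DM04070, 1.18 for DM04999, 0.99 for DM05928 and 0.97 for DM09528. Limma called all 5 higher, where it called 30.6% of all probes higher. In DM09528 and DM05928 the arrays fell into pairs in opposite directions, with arrays 1 and 2 higher in DM09528 and arrays 3 and 4 higher in DM05928.

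DM04955 was the only member highest in Bis2-ethylhexyl phthalate. Its levels there were 13.64, 13.62, 13.61 and 13.64, clear of Toluene at 13.16 to 13.29, the next chemical, and of Copper at 9.09 to 10.32, the lowest. The ratio to the Ethanol control was 0.89, and limma called it higher, as it did 27.6% of all probes in that comparison. Its profile fell in the cluster of the 12 Atrazine probes, 8 of which were lowest in Copper as well. Limma called 48 of the 50 Atrazine members higher than their control, again beside 31.5% of all probes. These calls rest on the arrays that chose the members, so nothing is read from them.

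**Figure D4:**
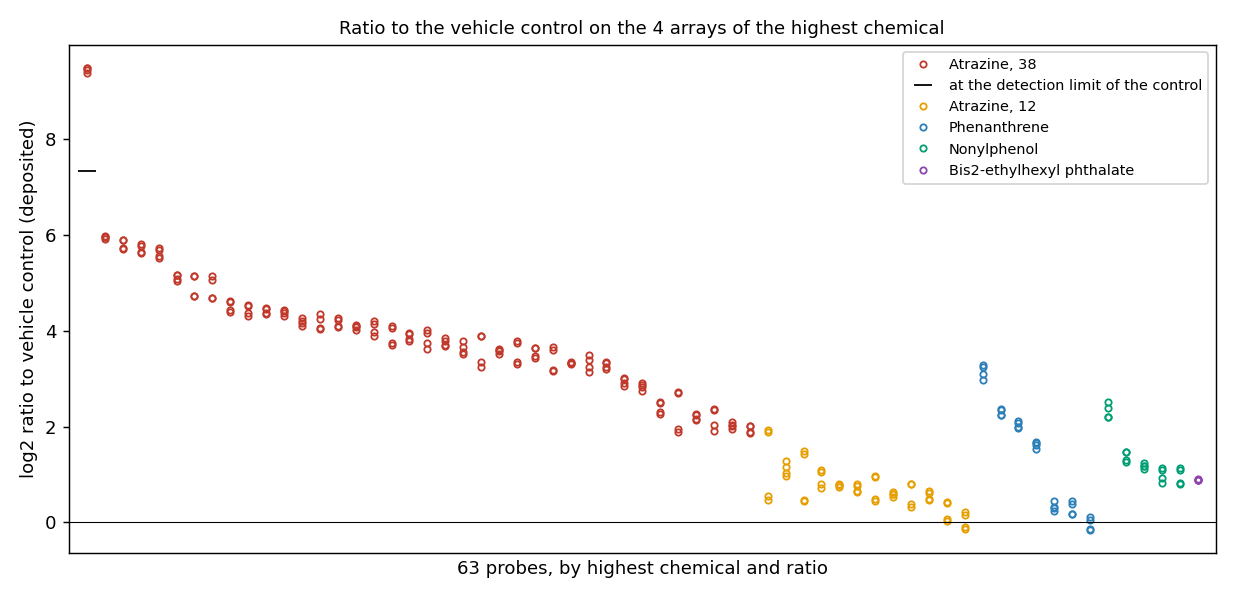
Deposited log2 ratio to the vehicle control (y axis) on each of the 4 arrays of the highest chemical, for the 63 probes (x axis) grouped by highest chemical and ordered by ratio. The black dash marks DM07688 taken against the median detection limit of the chemical arrays in Acetone (7.34), since the control arrays were not used. The 38 Atrazine probes have mean ratios from 1.94 to 9.45 and the 12 from 0.04 to 1.21.

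The peaks depended on how the arrays were scaled. With arrays centred on their medians in place of quantile normalization, 28 of the 63 kept the same highest chemical, and 11 of the 38 Atrazine probes did, with Arsenic the most frequent highest chemical at 14. With no scaling, Atrazine remained highest in 4 of the 38 and Arsenic was highest in 20. Atrazine still ranked high: over the 38 its median rank among 36 chemicals was 2 with median centring, with a worst rank of 5, and 4 with no scaling, with a worst rank of 9. Of the 12 other Atrazine members, 6 kept Atrazine as the highest chemical with median centring and 5 with no scaling, and Diazinon had the highest median of that set under both. Of the 7 Phenanthrene members, 6 kept Phenanthrene under either alternative. Of the 5 Nonylphenol members, 4 kept Nonylphenol with median centring and 1 with no scaling, and DM04955 kept Bis2-ethylhexyl phthalate with median centring but not without scaling. The median over all probes shifted under quantile normalization by 0.21 in Atrazine, 0.28 in Permethrin and -0.29 in Arsenic, and before scaling the 95th percentile lay 5.32 above the median in Atrazine and 5.90 in Arsenic. With no scaling the median of the 38 relative to the probe means was 2.37 in Arsenic, 2.04 in Atrazine, 1.72 in Diazinon and 1.58 in Permethrin, and with median centring it was 2.24 in Atrazine, 2.08 in Arsenic, 1.86 in Permethrin and 1.69 in Diazinon. The 38 were thus high in these 4 chemicals with each scaling, while their order changed. With no scaling Diazinon ranked 4 and Permethrin 6 of the 36 chemicals, so other chemicals came between them.

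**Figure D5:**
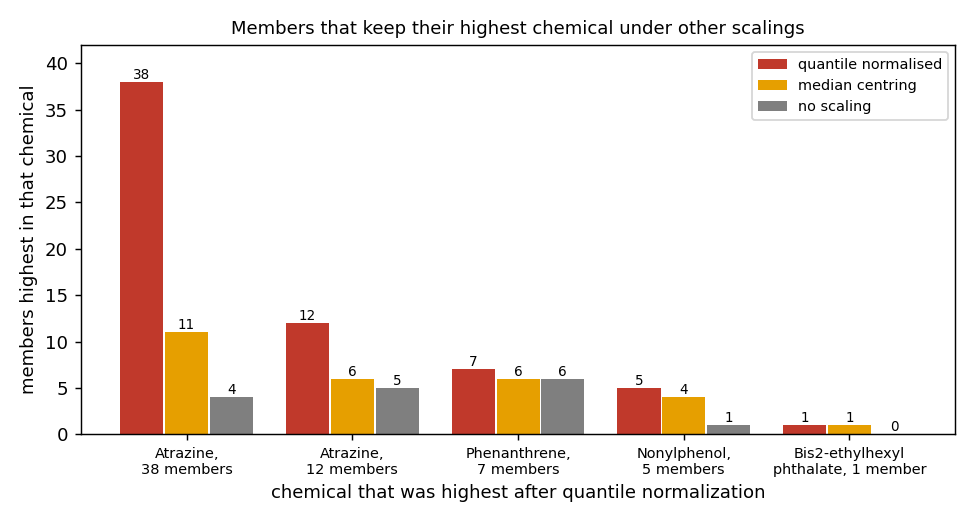
Number of members (y axis) that had the same highest chemical after quantile normalization (red), with median centring (orange) and with no scaling (grey), for each chemical and set (x axis). The red bars equal the full sets by construction; 11 and 4 of the 38 Atrazine probes remain under the alternatives, against 6 and 6 of the 7 Phenanthrene probes.

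The rule was also applied to part of the replicates. When the rule was applied without 1 replicate number of every chemical, the left-out arrays put the same chemical first for 174 of 263 chosen probes over the 4 repeats, and among the first 3 of 36 for 240. The share put first ran from 58.3% to 74.2% per repeat, beside 68.5% to 70.7% of all probes chosen for a span over 3 up to 5 and 46.6% to 50.5% of all probes. A left-out array usually had its nearest partner among those kept. When a whole nearest pair of every chemical was left out, a comparison chosen after the pairs were seen, the same chemical came first for 78 of 159 chosen probes and among the first 3 for 124. For all variable probes 59.4% and 56.9% kept their first chemical in the 2 directions, for all probes 42.3% did in both, and for the chosen ones 55.4% and 43.5% did. Of the 7 members spotted 2 times, 6 had both spots highest in the same chemical, and DM01475 had 1 spot highest in Phenanthrene and 1 in Selenium.

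The chemicals nearest to Atrazine among the 38 were also ranked over other variable probes. Permethrin was among the 5 highest chemicals in 34 of the 38 probes (89.5%), Diazinon in 29 (76.3%) and Arsenic in 28 (73.7%), where these chemicals were among the 5 highest in 30.3%, 36.0% and 21.3% of all 844 variable probes. Of the 92 variable probes that were highest in Permethrin, 66 (71.7%) had Atrazine among their 5 highest chemicals, and of the 108 highest in Diazinon, 59 (54.6%) did, against 32.8% of the variable probes. Arsenic was among the 5 highest in 60.9% of the 92 but in 16.7% of the 108. Copper was among the 10 lowest in 62.0% of the 108, 3.26% of the 92, none of the 38 and all of the 12. The share over the 844 variable probes was 31.5%. Nickel and Silver were also among the 10 lowest in all of the 12, beside 38.9% and 45.5% of the variable probes. Diazinon was among the 5 highest in 8 of the 12 (66.7%). In Arsenic and Copper the 108 were thus less like the 38 than the 92 were. A further 481 probes that are not members had a correlation over 0.8 with the median profile of the 38, and 75 did with that of the 12. These correlations are over 36 chemical means that share arrays and scaling, and are a description. The median profile of the 38 had a correlation of 0.35 with the median foreground of the chemical's arrays and of -0.23 with the share of probes above background, and that of the 12 had -0.26 and -0.13.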

How the data were processed

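The deposited scanner tables hold the median foreground and local background intensity of each of 15744 spots on 4 arrays for each of 36 chemicals, per the file headers, with no normalization. The authors' deposited value table holds, for 13481 probes, a log2 value per array. Its direction was found by comparison with the scanner values: scanner log2 signal minus value was nearly constant within a vehicle, with a median SD of 0.0568 to 0.0934 per vehicle, and signal plus value was not (0.709 to 1.03), so a value is the log2 ratio of chemical to vehicle control. The submitters' processing notes name limma and no settings. Further tables with 20 control arrays, which correspond to no sample, were not used here.

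Spots named as probes were averaged on the log2 scale and quantile normalized in Python 3.11.15 with numpy 2.4.6 and pandas 2.3.3. The background limit of an array was set from its 77 negative control spots, as their mean and 3 SD on top, and a probe over that limit is called above background. The arrays had median foregrounds of 67 to 125 and backgrounds of 35 to 41, and 52.3% to 95.2% of probes were above background. The number of arrays limits the precision. Each chemical was set against its vehicle control with limma 3.58.1 in R 4.3.3, as the mean of 4 ratios against 0 in a model of 36 means with 108 residual degrees of freedom, with p-values adjusted by Benjamini-Hochberg over all probes and a threshold of 0.05. The control's own spread is not in this test, nothing says that replicates came from separate extracts, and the p-values measure the spread between these arrays. The limma step and the selection rule were tested on simulated data.

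The members and the lists were chosen with earlier results of these data known. Named are the 6 members of largest span per chemical, the 2 with the largest and the 2 with the smallest ratio to control per chemical, the 2 with the largest SD over arrays, and the 3 on each side of each span limit. Replicate numbers did not pair the samples: deviations of same-numbered arrays between the 4 chemicals had correlations from -0.19 to 0.219. Other backgrounds, constants, scalings, filters and left-out replicates were tried.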

Additional observations from a re-analysis of the deposited data

Results flagged for a closer look

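In DM04999 the second Nonylphenol array, at 12.03, stood apart from the other 3, at 12.14 to 12.15, although the distance is small. In DM05292, named here for this reason alone, the first Atrazine array, at 10.84, stood apart from the other 3, which were all at 10.90. In a group of 4 independent arrays chance alone would mark about 1 in 20 in this way, and 63 members were examined for both level and ratio. The arrays of Atrazine and of Nonylphenol fell into nearest pairs, so that share may not hold here.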

How the results depend on the processing

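The selection depended most on the scaling: median centring gave 32 member probes, 17 of them highest in Atrazine, and 26 of the 32 were among the 63. A constant of 25 gave 71 members, 100 gave 54, the normexp background of limma gave 63, and leaving out flagged probes gave 62. With a constant of 100, 4 members were highest in Phenanthrene. Without 1 replicate number of every chemical the members numbered 61 to 72, with 48 to 54 highest in Atrazine, 6 to 8 in Phenanthrene, 5 to 10 in Nonylphenol (9 without replicate 1 and 10 without replicate 2) and 1 in Bis2-ethylhexyl phthalate. With median centring, 65 of 137 chosen probes were highest in the same chemical in the left-out replicate, against 174 of 263 with quantile normalization. When a nearest pair was left out in place of 1 replicate, 78 of 159 were. The cause of these differences was not tested. Of all 13481 probes limma called 8545 in Atrazine, 7546 in Bis2-ethylhexyl phthalate, 8242 in Nonylphenol and 6055 in Phenanthrene. Requiring a log2 ratio of 1 or more in size left 2300, 1339, 1734 and 978 in the same order. Averaging nearest arrays first, an alternative chosen after seeing the data, left 7035, 5535, 6545 and 3905 in that order. Without a replicate the counts were 7799 to 8109, 6533 to 6829, 7265 to 7727 and 5125 to 5418. The replicate block gave 8541, 7543, 8239 and 6045 calls, and the numbers do not pair the samples. The median log2 ratio of members was 3.55 in Atrazine, 0.89 in Bis2-ethylhexyl phthalate, 1.18 in Nonylphenol and 1.62 in Phenanthrene, and quantile normalization of the ratios, which gives every array 1 distribution of ratios, made it 2.32, 1.41, 1.44 and 2.60. Without a replicate it was 3.48 to 3.54, 0.88 to 0.89, 1.16 to 1.20 and 1.60 to 1.65. Low signal limits 6 members whose lowest chemical was not above background.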
